A study of Mus musculus with 6 samples.

Results

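The genes described here load peptides onto MHC class I molecules. They are B2m, H2-D1, Tap1, Tap2, Tapbp, Tapbpl, Psmb8, Psmb9, Psmb10 and Erap1, and every probe set whose annotated symbol is exactly 1 of these names was taken. All 10 genes were on the array, with 24 of the 20379 probe sets that name a single gene and 10 of the 12393 genes those cover. H2-D1 had 9 probe sets, Tap1 had 4, B2m, Tapbp and Tapbpl had 2 each, and the other 5 genes had 1 each.

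RNA came from CD11c+ cells of the spleen, separated magnetically (MACS), of untreated C57BL/6J mice at 8 weeks of age. CD11c is an integrin of dendritic cells that certain macrophages of the spleen carry as well. Groups of 3 arrays each were compared, WT (C57BL/6J) and Atg16L1 hypomorphic (C57BL/6J), the latter with reduced function of a protein of the autophagosome-forming machinery. Replicates are numbered without a statement that each is a separate mouse. The p-values therefore cover only the spread among the arrays, which may be technical, and the number of arrays limits the precision. The labels do not describe the hypomorphic allele or the cells in which it acts.

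MHC class I molecules display short peptides from inside the cell to CD8 T cells. The proteasome cuts cytosolic proteins, the TAP transporter pumps the fragments into the endoplasmic reticulum, aminopeptidases trim them there, and chaperones fit them into the groove of a heavy chain held by beta-2 microglobulin. Dendritic cells express this pathway strongly, also use it to cross-present proteins taken up from outside, and, like other immune cells, carry the immunoproteasome, a form of the proteasome with interferon-inducible catalytic subunits.

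In the hypomorph arrays, 1 of the 2 probe sets of the light chain gene B2m, 2 of the 9 of the heavy chain gene H2-D1 and the single one of the trimming enzyme gene Erap1 rose by 1.23-fold to 1.30-fold. Of the 2 probe sets of the tapasin gene Tapbp, 1 rose by 1.33-fold. Another H2-D1 probe set fell by 1.34-fold. No probe set of the transporter genes Tap1 and Tap2, of the immunoproteasome genes Psmb8, Psmb9 and Psmb10 or of Tapbpl passed the test. By the brightest probe set of each gene, 2 of the 10 genes (H2-D1 and Erap1) rose and 0 fell, where 9.65% of all genes rose and 8.32% fell. With limma across all single-gene probe sets, 5 of the 24 probe sets were higher in the hypomorph at a Benjamini-Hochberg adjusted p under 0.05 (here "rose") and 1 was lower ("fell"). Of all probe sets tested, 9.95% were higher and 7.73% lower, so the share that rose was above that of the whole array and the share that fell was below it, on counts of this size. Probe sets of 1 gene are repeated measures of it. H2-D1 alone had 9 of the 24, with 2 of the 5 rises and the 1 fall. The median log2 difference (hypomorph minus wild type) was 0.03 over the 24 probe sets and -0.04 over all, and the members' differences ran from -0.42 to 0.41. The 3 arrays of each genotype did not overlap for 11 of the 24 probe sets, against 39.8% of all probe sets, a similar share. All 6 changed probe sets were among the 16 above the median level of the array, and none of the 8 dimmer ones, for H2-D1, Tap1 and Tapbpl, passed. Calls were frequent above that level in general. In a limma fit of only the 10189 probe sets above it, 2147 were higher and 1687 lower, with 7 and 1 among the members' 16.

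Both groups also differed in measures that are no property of these genes. Poly-A spike-ins, added to the RNA before labelling, averaged 8.95 to 9.96 on the wild-type arrays and 7.58 to 7.90 on the hypomorph arrays, and hybridization controls, 18S ribosomal RNA and the 3' to 5' difference of beta-actin were lower in the hypomorph as well, without overlap (two-sided exact permutation p = 0.1 each, the smallest possible with 3 against 3 arrays). With spike-in signal as a covariate, a fit in which standard errors were 2.95 times as large (median), limma called no probe set of any gene (among members 0 higher and 1 lower at an unadjusted p under 0.05). Atg16l1 was lower in the hypomorph, at 7.05, 7.11 and 7.04 in wild type and 6.13, 5.84 and 6.11 in the hypomorph (2.05-fold, adjusted p = 0.00139). By their titles, wild-type replicate 1 has a different number prefix and replicate 3 a different array name. Without either of them, 4 of the members' probe sets rose and 1 fell in each case. All probe sets then gave 1814 and 1680 higher and 1463 and 1281 lower. When wild-type replicate 2 was omitted, 3 of the members' probe sets rose and 1 fell, against 1967 and 1577 of all. Without hypomorph replicate 1, 2 or 3, limma called 0 members higher (9, 6 and 6 at an unadjusted p under 0.05) and 1, 0 and 0 lower. None of the 5 rises thus passed in these fits, which called fewer probe sets of any gene. Of all probe sets, 1032, 1027 and 932 were higher there, against 2028 with every array. Those lower numbered 583, 402 and 347, against 1576. In bulk RNA, fewer cells of a type and less RNA per cell cannot be told apart.

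**Figure D1:**
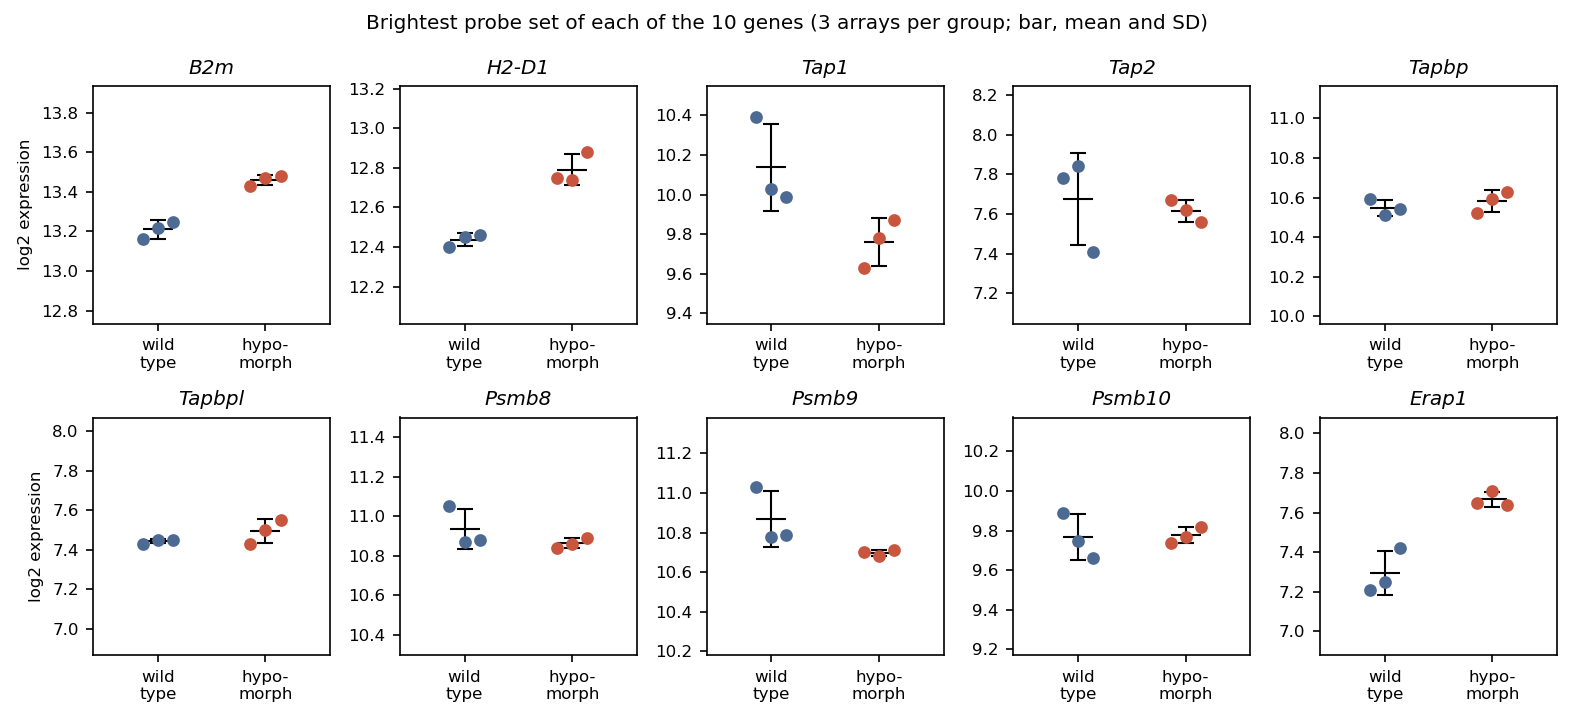
Log2 expression of the brightest probe set of each gene on the 3 wild-type and 3 hypomorph arrays, with points for arrays and bars for mean and SD. Each panel spans 1.2 log2 units. B2m, H2-D1 and Erap1 lie higher in every hypomorph array, Tap1 and Psmb9 lower, and the other 5 genes overlap.

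B2m encodes beta-2 microglobulin, the light chain shared by all classical class I molecules. By probe set 1449289_a_at it was at 13.00, 13.11 and 13.16 in wild type and at 13.38, 13.50 and 13.47 in the hypomorph. All 3 hypomorph arrays lay above all wild-type arrays, a 1.29-fold rise (log2 difference 0.36, SE 0.082, adjusted p = 0.0256). The other probe set, 1452428_a_at, read 13.16, 13.22 and 13.25 against 13.43, 13.47 and 13.48, again without overlap, and narrowly missed the threshold (0.25, SE 0.073, adjusted p = 0.0572). The mean of both passed when genes were tested in place of probe sets (0.31, adjusted p = 0.0275).

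H2-D1 encodes a classical class I heavy chain, the subunit that holds the peptide. Its 9 probe sets did not tell 1 story, since 2 rose, 1 fell and 6 did not pass. Probe set 1425545_x_at was at 12.40, 12.45 and 12.46 in wild type and at 12.75, 12.74 and 12.88 in the hypomorph (1.28-fold, log2 difference 0.35, SE 0.078, adjusted p = 0.0237). Probe set 1451784_x_at gave nearly the same levels, 12.41, 12.47 and 12.46 against 12.71, 12.69 and 12.85 (1.23-fold, 0.30, SE 0.079, adjusted p = 0.0419). In both, the groups were apart by more than the range within either. The opposite was measured by 1426324_at, at 9.58, 9.56 and 9.64 in wild type and 9.18, 9.16 and 9.19 in the hypomorph, which fell 1.34-fold (-0.42, SE 0.071, adjusted p = 0.0101). This fall was the most separated of the 24 differences relative to its error, and its groups did not overlap either.

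Of the 6 H2-D1 probe sets that did not pass, 1451683_x_at (10.20, 10.21 and 10.19 against 10.34, 10.50 and 10.58, adjusted p = 0.0699) and 1452544_x_at (5.08, 4.93 and 4.86 against 5.11, 5.36 and 5.24, adjusted p = 0.0969) were higher without overlap. The other 4 overlapped, with log2 differences from -0.12 to 0.13. Class I heavy chain genes are near copies of each other, and the suffix x marks probe sets with probes that can also match other sequences. The suffix was on 7 of the 9 H2-D1 probe sets, among them both that rose, and the probe set that fell does not carry it. In the annotation only 1 of the 9, 1450170_x_at, is listed under a RefSeq transcript of H2-D1. It stood at 6.72, 6.78 and 6.74 in wild type and 6.64, 6.71 and 6.82 in the hypomorph (log2 difference -0.02, 95% interval -0.21 to 0.17). The others are listed under other sequence records, which were not compared with H2-D1 and may hold its sequence as well. Which heavy chain transcripts each probe set read was not tested, and the direction for the gene therefore depends on the probe set. The mean of all 9 did not pass (0.08, adjusted p = 0.465). After quantile normalization the differences of 1425545_x_at and 1451784_x_at shrank to 0.19 and 0.10 and their calls were lost (adjusted p = 0.169 and 0.462). The call of 1451784_x_at was also lost with arrays centred on their medians (adjusted p = 0.0552) and when wild-type replicate 1, 2 or 3 was omitted (adjusted p = 0.0695, 0.0661 and 0.0788).

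The paralogous heavy chain gene H2-K1 gave a like picture at its brighter probe sets. Probe set 1425336_x_at was at 12.65, 12.73 and 12.76 in wild type and 12.79, 12.88 and 12.99 in the hypomorph (log2 difference 0.17, adjusted p = 0.205), and 1451931_x_at at 12.46, 12.50 and 12.53 against 12.71, 12.70 and 12.82 (0.25, adjusted p = 0.0658). Neither passed, although neither pair of groups overlapped. The 2 dimmer H2-K1 probe sets overlapped (0.14 and 0.12, adjusted p = 0.457 and 0.508). Every H2-K1 probe set carries the suffix x, and whether these read H2-D1 transcripts as well was not tested. A probe set annotated to both H2-K1 and H2-D1, left out of the fit, averaged 10.04 in wild type and 10.24 in the hypomorph.

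**Figure D2:**
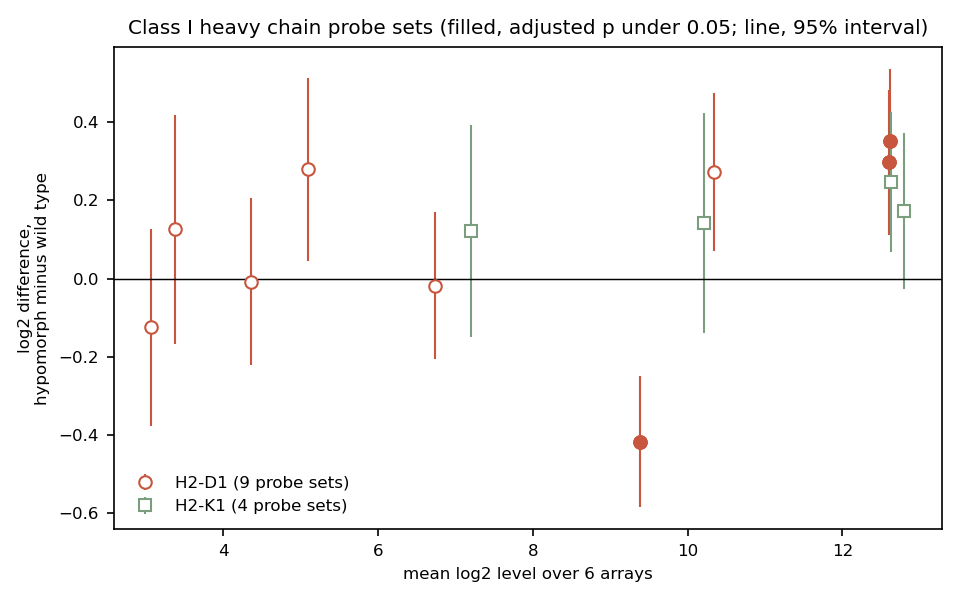
Log2 difference between genotypes (hypomorph minus wild type) of the 9 H2-D1 and 4 H2-K1 probe sets against their mean log2 level over 6 arrays, with 95% intervals. Filled points have an adjusted p under 0.05. The 2 filled H2-D1 points near a level of 12.6 lie at 0.35 and 0.30, and the filled point near 9.4 lies at -0.42.

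Erap1 encodes the aminopeptidase of the endoplasmic reticulum that trims peptides to the length the groove accepts. Its single probe set was at 7.21, 7.25 and 7.42 in wild type and at 7.65, 7.71 and 7.64 in the hypomorph. It rose 1.30-fold (log2 difference 0.38, SE 0.084, adjusted p = 0.0252), with all hypomorph arrays above all wild-type arrays. The call was also lost without wild-type replicate 2 (adjusted p = 0.0518), with a difference of 0.36.

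RefSeq gave a start-site window for 8 of the 10 genes (GRCm38.p6, C57BL/6J), and the windows of the 4 genes with a probe set that rose are shown with that of Tap1, which had none, for comparison. Each line gives the 250 bases before the annotated start, 5′ to 3′ on the strand of the gene. Capitals mark matches, on either strand, to short motifs known from class I promoters: an interferon regulatory factor core (GAAANNGAA or GAANNGAAA, which can overlap), a GAS core (TTCNNNGAA), a kB core (GGGNNTTCC) and CCAAT. Across 32851 such windows of all genes, 12.5% held the interferon regulatory factor core, 7.02% the GAS core, 4.98% the kB core and 33.8% CCAAT.
B2m, chr2:122147437-122147686, + strand: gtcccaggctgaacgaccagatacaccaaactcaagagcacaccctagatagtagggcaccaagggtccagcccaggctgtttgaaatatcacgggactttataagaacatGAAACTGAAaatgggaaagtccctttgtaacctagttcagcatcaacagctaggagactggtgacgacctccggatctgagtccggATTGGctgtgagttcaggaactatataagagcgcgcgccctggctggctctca
H2-D1, chr17:35262844-35263093, + strand: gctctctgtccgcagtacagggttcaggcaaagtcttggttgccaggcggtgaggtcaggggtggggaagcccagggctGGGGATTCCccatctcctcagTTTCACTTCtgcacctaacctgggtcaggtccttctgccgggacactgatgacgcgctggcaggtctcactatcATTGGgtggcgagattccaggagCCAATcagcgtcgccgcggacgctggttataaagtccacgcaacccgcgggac
Erap1, chr13:74639603-74639852, + strand: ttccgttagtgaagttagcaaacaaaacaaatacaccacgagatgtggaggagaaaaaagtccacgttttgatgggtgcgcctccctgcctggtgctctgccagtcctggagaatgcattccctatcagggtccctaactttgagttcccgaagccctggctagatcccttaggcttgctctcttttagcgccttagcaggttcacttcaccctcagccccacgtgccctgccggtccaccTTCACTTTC
Tapbp, chr17:33919228-33919477, + strand: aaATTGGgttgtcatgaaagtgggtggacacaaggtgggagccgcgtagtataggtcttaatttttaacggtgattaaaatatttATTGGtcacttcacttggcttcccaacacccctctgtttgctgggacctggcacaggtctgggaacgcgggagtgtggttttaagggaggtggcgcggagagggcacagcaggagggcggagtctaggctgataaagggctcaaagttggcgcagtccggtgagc
Tap1, chr17:34187306-34187555, + strand: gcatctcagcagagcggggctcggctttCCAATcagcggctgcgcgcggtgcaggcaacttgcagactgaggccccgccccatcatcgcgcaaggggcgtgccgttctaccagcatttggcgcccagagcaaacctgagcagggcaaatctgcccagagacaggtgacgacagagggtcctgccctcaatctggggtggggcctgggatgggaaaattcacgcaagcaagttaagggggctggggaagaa

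The B2m window held an interferon regulatory factor core that began 139 bases before the start, with a CCAAT match on the other strand. In H2-D1 the kB core (171 bases before the start) and the interferon regulatory factor core (150 bases before it) lay near each other, followed by CCAAT on both strands. Erap1 had the interferon regulatory factor core directly at the start. Tapbp held 2 matches to CCAAT and none to the other motifs. Tap1 and Psmb9 are neighbours transcribed away from each other, with 226 bases between their starts, so the Tap1 line also covers the space before Psmb9, and these letters were matched there only by CCAAT. Of the other windows, Psmb8 held the GAS core and Psmb10 none of the motifs. A match is a description of the letters, not evidence of binding, and no match says only that these letters are not in this window.

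Tap1 and Tap2 encode the subunits of the TAP transporter, which brings cytosolic peptides into the endoplasmic reticulum. The brightest Tap1 probe set, 1416016_at, was at 10.39, 10.03 and 9.99 in wild type and 9.63, 9.78 and 9.87 in the hypomorph. All hypomorph arrays lay below all wild-type arrays, yet the difference did not pass (log2 difference -0.37, SE 0.13, 95% interval -0.68 to -0.07, adjusted p = 0.088). Wild-type replicate 1 was the highest array, and without it the difference was -0.25 (adjusted p = 0.133). With a variance trend and robust fitting the same difference passed (adjusted p = 0.0454). The 3 other Tap1 probe sets were below the median level of the array and had differences from -0.14 to 0.03. Tap2 was at 7.78, 7.84 and 7.41 against 7.67, 7.62 and 7.56, with overlap (-0.06, 95% interval -0.35 to 0.24, adjusted p = 0.788). No probe set of either subunit gene rose. The unadjusted interval of Tap1 1416016_at lies below 0, and those of the 3 other Tap1 probe sets include 0. The mean of the Tap1 probe sets did not pass in limma (-0.14, 95% interval -0.30 to 0.02, adjusted p = 0.191).

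Psmb8, Psmb9 and Psmb10 encode the immunoproteasome's catalytic subunits LMP7, LMP2 and MECL-1. Psmb8 was at 11.05, 10.87 and 10.88 in wild type and 10.84, 10.86 and 10.89 in the hypomorph (log2 difference -0.07, 95% interval -0.26 to 0.12, adjusted p = 0.592). Psmb9 was at 11.03, 10.78 and 10.79 against 10.70, 10.68 and 10.71, lower in all 3 hypomorph arrays without passing (-0.17, 95% interval -0.39 to 0.05, adjusted p = 0.254). Psmb10 was at 9.89, 9.75 and 9.66 against 9.74, 9.77 and 9.82 (0.01, 95% interval -0.19 to 0.22, adjusted p = 0.94). The hypomorph arrays differed little among themselves, and wild-type replicate 1 was the highest of all arrays for each of the 3 genes, as it was for Tap1. Without that array the differences were -0.01 for Psmb8, -0.09 for Psmb9 and 0.07 for Psmb10. In RefSeq's gene order Psmb9, Tap1, Psmb8 and Tap2 are 4 consecutive protein-coding genes of chromosome 17, and none of them passed the test.

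Tapbp encodes tapasin, which ties empty class I molecules to TAP. Its brightest probe set, 1421812_at, was at 10.59, 10.51 and 10.54 in wild type and 10.52, 10.59 and 10.63 in the hypomorph, with overlap (log2 difference 0.03, 95% interval -0.14 to 0.21, adjusted p = 0.786). The dimmer probe set 1450378_at was at 6.01, 6.06 and 6.12 against 6.52, 6.47 and 6.43, a 1.33-fold rise without overlap (0.41, SE 0.076, adjusted p = 0.0133). The annotation lists both under the same accession, and whether the gene passed depends on the probe set. The part of the transcript that each reads was not tested. Tapbpl encodes TAPBPR, a tapasin relative that edits peptides without TAP. It was at 7.43, 7.45 and 7.45 against 7.43, 7.50 and 7.55 by its brighter probe set (0.05, 95% interval -0.13 to 0.22, adjusted p = 0.693), and its dimmer probe set overlapped as well (0.04, adjusted p = 0.869).

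**Figure D3:**
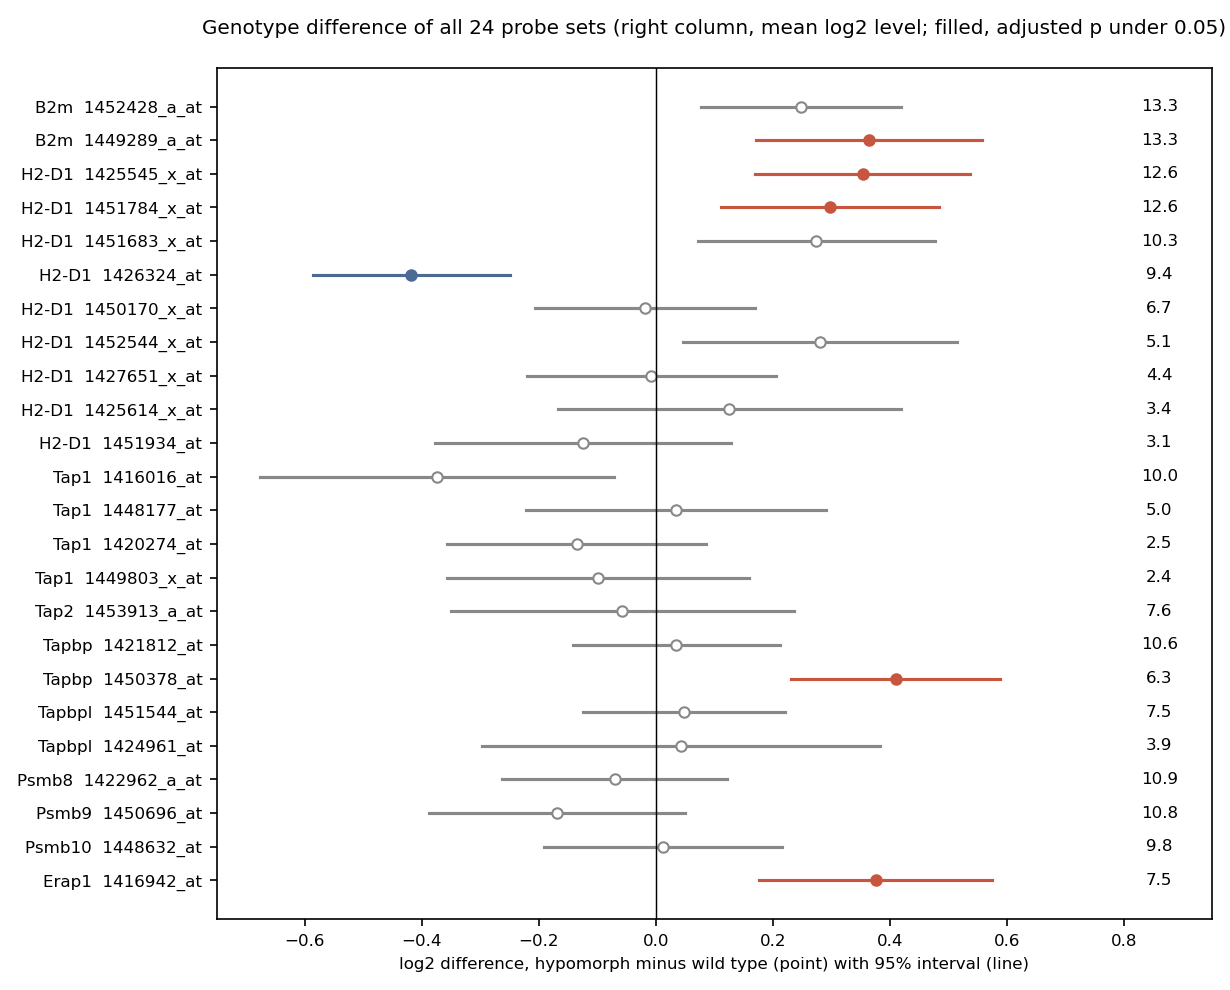
Log2 difference between genotypes (hypomorph minus wild type) of all 24 probe sets of the 10 genes, with 95% intervals as lines and the mean log2 level at the right. Filled points have an adjusted p under 0.05. They are 5 to the right of 0, for B2m, H2-D1 (2), Tapbp and Erap1, and 1 to the left, for H2-D1.

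Other genes of the pathway were taken as 4 lists of 49 genes in all. A single-gene probe set was found for 34, and the brightest stood for the gene. Of these 34, 3 rose and 1 fell, against the same 9.65% and 8.32% of all genes, and their median log2 difference was -0.03 (-0.05 over all genes). The share that rose was close to that background. The 3 that rose all work in the endoplasmic reticulum, in the list of chaperones and translocon genes (3 of 8 rose, 0 fell, median 0.07). In the same list Sec61b and Uggt1 were lower without overlap and did not pass in limma (-0.28 and -0.32, adjusted p = 0.0741 and 0.116).

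Canx encodes calnexin, which holds newly made heavy chains before they meet beta-2 microglobulin. It was at 10.89, 11.02 and 11.17 in wild type and 11.42, 11.42 and 11.52 in the hypomorph, a 1.34-fold rise (log2 difference 0.43, SE 0.095, adjusted p = 0.0245), and its 2 other probe sets rose too (0.43 and 0.93, adjusted p = 0.0498 and 0.0165). Pdia3 encodes ERp57, the thiol oxidoreductase bound to tapasin, and was at 10.23, 10.19 and 10.18 against 10.50, 10.51 and 10.50, a 1.23-fold rise (0.30, SE 0.07, adjusted p = 0.0278). Pdia3 did not pass when the arrays were quantile normalized (0.22, adjusted p = 0.073), nor when wild-type replicate 2 or 3 was omitted (adjusted p = 0.0538 and 0.0612). Hspa5, the gene of the general chaperone BiP, was at 11.90, 11.77 and 11.79 against 12.36, 12.23 and 12.33 (1.40-fold, 0.49, SE 0.08, adjusted p = 0.00905), and its other probe set rose by 0.58. For each of the 3 genes all hypomorph arrays lay above all wild-type arrays. Calr, the gene of calreticulin, was at 11.74, 11.53 and 11.55 against 11.76, 11.64 and 11.75, and did not pass (0.11, 95% interval -0.10 to 0.33, adjusted p = 0.428). Without hypomorph replicate 1, 2 or 3, the pathway genes that rose numbered 1, 1 and 0 (with limma, 5, 4 and 4 at an unadjusted p under 0.05).

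None of the 3 constitutive subunits that the immunoproteasome subunits replace passed. Psmb5, replaced by Psmb8, had a log2 difference of -0.03 (adjusted p = 0.855). Psmb6, replaced by Psmb9, had -0.04 (adjusted p = 0.773), and Psmb7, replaced by Psmb10, had 0.26 (adjusted p = 0.134), with all hypomorph arrays above all wild-type arrays. Psme1, which encodes a subunit of the PA28 activator, was at 11.34, 11.31 and 11.26 against 11.17, 11.24 and 11.28 (-0.07, adjusted p = 0.535). Of the 11 genes of that list, only Nrd1, the gene of a cytosolic metallopeptidase, changed. It was at 8.73, 8.73 and 8.75 in wild type and 8.40, 8.25 and 8.29 in the hypomorph, a 1.34-fold fall (-0.42, SE 0.076, adjusted p = 0.0123), which was lost without hypomorph replicate 2 or 3. Its dimmer probe set did not pass (-0.17, adjusted p = 0.295).

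With limma, no heavy chain gene outside the members passed among 9 measured of 17 listed (2 genes at an unadjusted p under 0.05 in the higher direction and 1 in the lower). The gene with the highest level was H2-K1. The closest to the threshold was H2-T24, higher without overlap (log2 difference 0.51, adjusted p = 0.0511). None of 6 regulators passed either (0 at an unadjusted p under 0.05). Irf1, the interferon-induced factor that drives class I and immunoproteasome genes, was at 9.68, 9.80 and 9.66 against 9.61, 9.53 and 9.60 (log2 difference -0.14, 95% interval -0.32 to 0.05, adjusted p = 0.268). Nlrc5, the class I transactivator gene, was not analysed here.

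**Figure D4:**
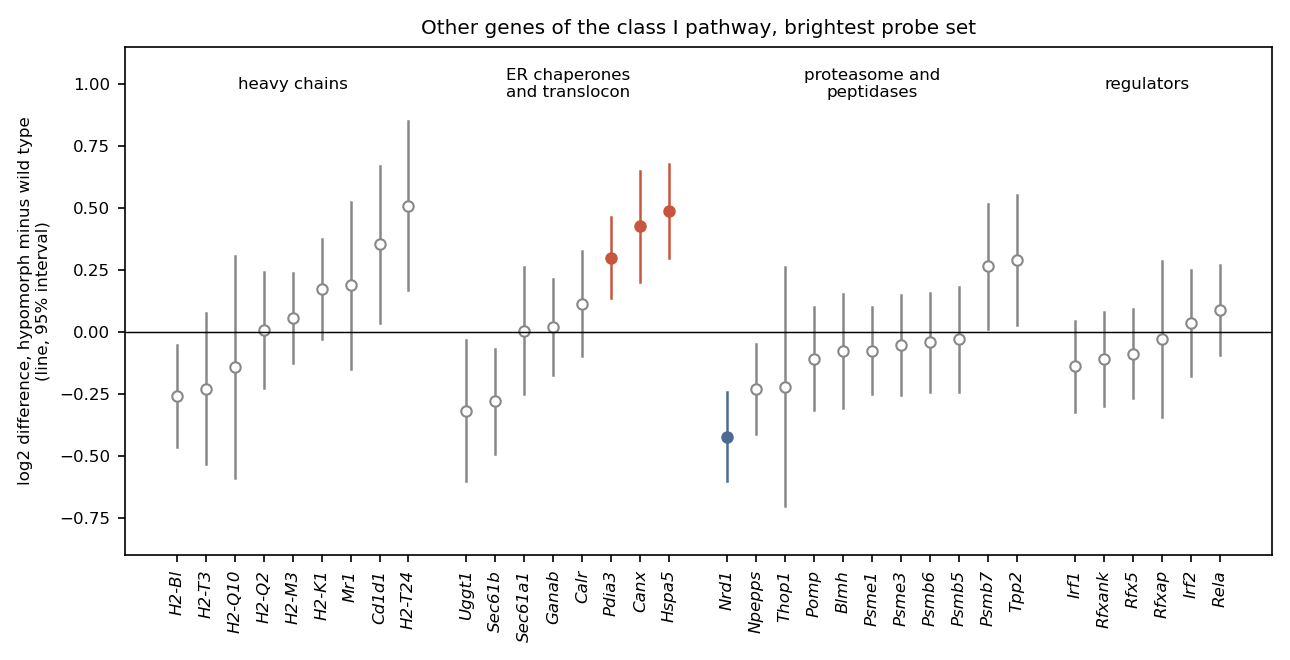
Log2 difference between genotypes (hypomorph minus wild type) of 34 other pathway genes by their brightest probe set, in 4 lists, with 95% intervals as lines. Filled points have an adjusted p under 0.05: Pdia3, Canx and Hspa5 above 0 and Nrd1 below.

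Class I and immunoproteasome genes respond to interferons, so a list of interferon-stimulated genes was set beside them. Of 29 measured, 3 rose and 0 fell, with a median log2 difference of 0.10. The share that rose, 10.3%, was near the 9.65% of all genes. Ifih1, an RNA sensor gene, rose 1.70-fold (adjusted p = 0.00244), the guanylate-binding protein gene Gbp2 1.78-fold (adjusted p = 0.0253) and Ifit3 1.74-fold (adjusted p = 0.0355). Relative to the wild-type mean, the mean of the list was 0.11, -0.0003 and -0.11 on the wild-type arrays and -0.06, 0.26 and 0.37 on the hypomorph arrays, with hypomorph replicate 1 inside the wild-type range. The means of the 10 members on hypomorph replicates 1 and 2 (0.0064 and 0.041) lay inside their own wild-type range. That on replicate 3 (0.073) lay above it. The calls of Gbp2 and Ifit3 were lost without hypomorph replicate 2 or 3 and without wild-type replicate 3, and that of Ifit3 without any wild-type array.

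Markers of other cells moved between the same arrays. Of 18 macrophage markers, 17 rose and 0 fell, and their mean level was 8.48 to 9.13 on wild-type arrays and 10.45 to 10.55 on hypomorph arrays. Of 7 B cell markers, 3 fell and 0 rose (8.02 to 8.58 against 7.55 to 8.07). Of 17 dendritic cell markers, 2 rose and 3 fell (9.57 to 9.73 against 9.57 to 9.69). Among them Itgax, which encodes CD11c, fell from 10.45, 10.20 and 10.30 to 10.01, 9.87 and 9.96 (limma adjusted p = 0.0351). Zbtb46 and Ciita fell too (log2 differences -0.63 and -0.93, adjusted p = 0.0101 and 0.00818). The 2 that rose were Sirpa and Xcr1 (0.96 and 0.46, adjusted p = 0.00107 and 0.0384). Of 4 plasmacytoid dendritic cell markers 1 rose, of 6 neutrophil markers 1 rose and of 4 erythroid markers 1 rose, where 9.65% of all genes rose. None of these markers fell. Without passing, Ly6d, Tcf4 and S100a9 were lower without overlap (log2 differences -0.25, -0.09 and -0.59) and Camp was higher (0.86). No marker of 6 for T cells or 4 for NK cells passed (T cell 0, NK cell 0 at an unadjusted p under 0.05). Their median differences were -0.37 and 0.19. Relative to the wild-type mean, the mean of the 10 members by their brightest probe sets was 0.06, -0.02 and -0.05 on wild-type arrays and 0.01, 0.04 and 0.07 on hypomorph arrays, with overlap, and that of the macrophage list was 1.63 to 1.73 on hypomorph arrays. The part of cell composition in the differences of B2m, H2-D1 and Erap1 was not tested.

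**Figure D5:**
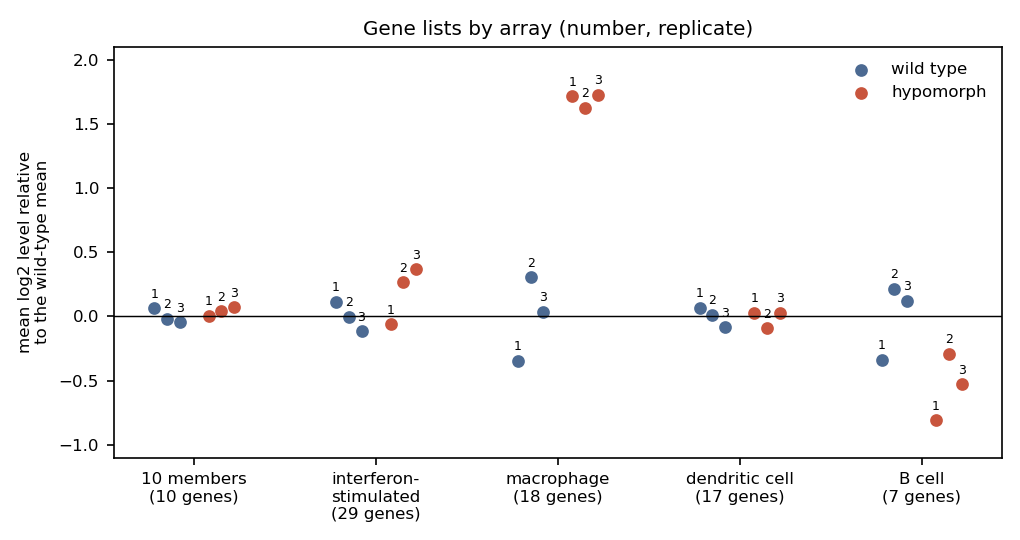
Mean log2 level relative to the wild-type mean for the 10 members (brightest probe sets) and 4 other gene lists on each of the 6 arrays, with replicate numbers. The members stay between -0.05 and 0.07, the macrophage list is at 1.63 to 1.73 in the hypomorph, and the interferon list spans -0.06 to 0.37 there.

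The mean of the 10 members is a poor summary of them, since B2m, H2-D1 and Erap1 were higher and Tap1 and Psmb9 lower on the hypomorph arrays. Of the 12383 other genes, those most like this mean over the 6 arrays were Creb3l4 (Pearson's r 0.99), Mapk8ip1 (0.98), Epha7 (0.98), Fbxw8 (0.97) and Bag6 (0.97). These values are a description over 6 arrays that share 2 genotypes, and the centred mean itself spans only -0.07 to 0.05.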

How the data were processed

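Samples were 3 wild-type and 3 Atg16L1 hypomorphic arrays (Affymetrix MOE430A). Per the labels, RNA was extracted with TRIzol. The deposited values, 1 per probe set and array, were made with Affymetrix Power Tools, per the submitters' processing notes. The version, background correction, normalization and summarization used are not stated in the labels. The log2 scale of the deposited values is inferred from their range, and their normalization between arrays from close array medians (5.72 to 5.79), so fold changes rest on that inference. Such normalization hides differences in total RNA per cell.

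Of 22625 probe sets that are no controls, 20379 name 1 gene in the platform annotation and were tested, each on its own; 691 name several and 1555 none. Limma 3.58.1 in R 4.3.3 (lmFit, eBayes, two-sided, no filter on dim probe sets) compared the genotypes over all of them. Intervals are 95% and unadjusted. The fit was tested on simulated data. Python 3.11.15, pandas 2.3.3, scipy 1.17.1 and matplotlib 3.10.9 made tables and plots.

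The members, lists, motifs and tests were chosen with earlier results of these data known. Named are all members; from the other pathway lists and the interferon list, up to 6 genes past the threshold or else the gene of highest level; genes set by name, among which Nlrc5 and Psme2 were not analysed here; and the 5 genes most like the members' mean. Itgax and the other single cell type markers were named after their values were seen, as were Sec61b and Uggt1. Alternatives were gene-level tests, level filters, 2 other normalizations, trend with robust fitting, array weights, the replicate block, the spike-in covariate and leaving out each array.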

Additional observations from a re-analysis of the deposited data

How the results depend on the processing

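Of 334 values of the 24 members' probe sets under alternatives, 267 kept direction and side of the threshold, 35 lost a call, 9 gained one and 23 changed sign. For the other named genes the counts were 173, 27, 1 and 9 of 210. The cause of these changes was not tested. With limma at gene level, by the brightest probe set and by the mean, 2 and 2 members were higher and 0 and 0 lower (1 and 0 lower at an unadjusted p under 0.05). All genes then gave 1210 and 1231 higher and 1050 and 1016 lower. Trend with robust fitting gave 7 higher and 2 lower member probe sets, against 2338 and 1858 of all 20379. Array weights gave 7 higher and 1 lower, against 2204 and 1979 of all. Pathway genes lower numbered 3 above the median level, 3 after quantile normalization and 3 with trend. All probe sets lower there numbered 1687 of 10189, 1744 of 20379 and 1858 of 20379. Pathway genes higher in these settings numbered 3, 3 and 4.

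With the spike-in covariate in limma, 0 members (0 higher and 1 lower at an unadjusted p under 0.05), 0 pathway genes (2 and 0) and 0 of all probe sets (1148 and 784) passed in either direction. Log2 differences that changed sign there were 0.11 (Tap1 1416016_at), -0.55 (1448177_at), 0.15 (1420274_at), 0.62 (Tap2), -0.034 (Tapbpl 1451544_at), 0.15 (Psmb8), 0.20 (Psmb9), -0.049 (Canx), -0.087 (H2-K1), 0.37 (Psmb5), 0.28 (Psmb6), -0.13 (Psmb7) and -0.0097 (Gbp2). With array weights they were -0.0056 (Tap1 1448177_at), 0.0046 (Tap2) and 0.0058 (Psmb5). After quantile normalization they were 0.048 (H2-D1 1427651_x_at), -0.045 (Tapbp 1421812_at) and -0.048 (Psmb10).

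Whether same-numbered arrays of the 2 genotypes form pairs cannot be told from these values. Their deviations from the group means correlated at 0.16, 0.019 and 0.10, and those of differently numbered arrays at -0.17 to 0.13. With the replicate block in limma, 0 member probe sets were higher (7 at an unadjusted p under 0.05) and 1 lower, 2 pathway genes were higher and 1 lower, and 1353 of all probe sets were higher and 861 lower.

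Leaving out 1 array at a time gave 0 to 4 members higher and 0 to 1 lower, 0 to 4 pathway genes higher and 0 to 2 lower, and 932 to 1967 of all probe sets higher and 347 to 1577 lower. Differences then ran across 0 from -0.067 to 0.022 (H2-D1 1450170_x_at), -0.055 to 0.058 (1427651_x_at), -0.054 to 0.10 (Tap1 1448177_at), -0.19 to 0.024 (Tap2), -0.095 to 0.12 (Tapbpl 1424961_at), -0.039 to 0.074 (Psmb10), -0.078 to 0.043 (Psmb5) and -0.085 to 0.024 (Psmb6). Signal over background is not known for these values, which limits what can be said of the dimmest probe sets.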
